A study of Mus musculus with 15 samples.

Results

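The genes described here are those named as ubiquitin-conjugating enzymes, the Ube2 genes of the mouse. They were chosen by symbol alone, as every gene whose symbol is Ube2 followed by a letter and any further letters or digits. The rule found 40 genes, 39 of the 51627 genes in the embryonic stem cell (ESC) table and 40 of the 53564 genes in the embryo table. Ube2c was not analysed here in the ESCs. The symbols do not all stand for such an enzyme. Ube2uos is annotated as an antisense transcript, Ube2d4 and Ube2nl are annotated as processed pseudogenes, and Ube2cbp was named for binding Ube2c and is counted among ligase-like proteins.

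Ubiquitin is attached to a protein through a relay of an activating enzyme (E1), a conjugating enzyme (E2) and a ligase (E3). The E2 carries ubiquitin on a catalytic cysteine and largely sets whether a single ubiquitin or a chain is made, and of which kind, while the E3 picks the substrate. Early embryos depend on this pathway to destroy maternal proteins and to pass through the cell cycle, and some E2 enzymes carry a small relative of ubiquitin, such as NEDD8, in its place.

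RNA-Seq was done on J1 cells, an established mouse ESC line that was grown here without feeder cells, and on mouse 2-cell embryos. In the ESCs, 2 libraries labelled Zscan4 OE (overexpression) were compared with 2 wild type control libraries. In the embryos, 6 libraries labelled Zscan4 RNAi (knockdown) were compared with 5 control libraries. Zscan4 is a family of zinc finger genes switched on at the 2-cell stage and, in culture, in few ESCs at a time, and the study's title names ubiquitination as the process of interest. The labels give neither the overexpression construct and its promoter, nor the RNAi reagent, nor the strain and number of embryos in a library, nor whether replicates came from separate cultures or embryo pools, so a p-value here covers only the differences between these libraries, which may be technical. In such bulk samples, fewer cells of a type and less RNA per cell cannot be told apart.

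Between 21820093 and 26555027 reads were assigned to genes per ESC library, and between 695524 and 1432566 per embryo library. The 9 measured Zscan4 genes summed to 20005 and 19449 normalised reads in the OE ESCs, against 152 and 212 in the control ESCs. Their sum averaged 230 normalised reads in the RNAi embryos, with a range of 13.9 to 383, and 734 in the control embryos, with a range of 345 to 1064, so single libraries of both embryo groups overlapped. In the ESCs all 8 ESC marker genes passed the filter on low values, with 2 higher and 0 lower in the OE ESCs. Of 10 transcripts of the 2-cell embryo, 6 were higher, among them Zscan4c, Zscan4d and Zscan4f, of the overexpressed family itself. The list summed to 15942 and 15988 in the OE ESCs and 127 and 154 in the control ESCs. Zscan4c and Zscan4f, averaging 10453 and 4469 in the OE ESCs, made up most of the OE sum, which says little of the other genes. Of 16 oocyte transcripts tested, Zp3 and Bmp15 were higher, with a sum of 3202 and 5070 over the list in the OE ESCs and 2617 and 2770 in the control ESCs. Bmp15 was at 0 in both control ESCs and met the filter through the OE libraries alone, so its call says no more than that choice does. Of 4 feeder or fibroblast genes tested, 2 were higher, Col1a2 at 258 in the OE ESCs and 53.0 in the control ESCs and Col3a1 at 56.1 and 8.01, and Pdgfrb was lower at 83.7 and 496; the list summed to 366 to 441 in the OE ESCs and 535 to 578 in the control ESCs. Of 8 cumulus or granulosa genes 1 was higher and 1 lower, with sums of 155 to 228 in the OE ESCs and 163 to 179 in the control ESCs, and of 3 blood genes tested none was called, with sums of 20.1 to 25.0 in the OE ESCs and 5.71 to 26.2 in the control ESCs. Of 20 oocyte (maternal) transcripts, 7 were higher and 0 lower in the RNAi embryos, with a summed level of 37185 to 59780 against 11169 to 17928 in the control embryos. Zbed3 alone averaged 25921 in the RNAi embryos and 5853 in the control embryos, a large part of these sums, which say little of the other genes. Of 10 transcripts that the 2-cell embryo makes itself, 5 were lower and 1 was higher. The lower ones included Zscan4d and Zscan4f, of the family that the RNAi targets, and the zygotic list levels below include Zscan4 genes too. The embryo control library 5 stood apart from the other controls: its mean log2 level was 7.54 for the maternal and 5.71 for the zygotic list, against 6.79 to 7.04 and 6.06 to 6.92 in the other controls. The RNAi embryos lay at 7.53 to 8.63 for the maternal list and at 3.90 to 5.90 for the zygotic list. In the embryos the summed level of 8 cumulus or granulosa cell genes was 3.28 to 12.4 in the RNAi embryos and 1.68 to 17 in the control embryos, with Amh, Inha and Has2 at 0 in every library. For 5 blood cell genes it was 6.94 to 139 in the RNAi embryos and 28.5 to 70.4 in the control embryos, with Hbb-bs and Hbb-bt at 0 in every library. For 7 feeder or fibroblast genes it was 3.43 to 33.7 in the RNAi embryos and 0 to 15.1 in the control embryos, with Col3a1 at 0 in every library. No tested gene of these 3 lists was called in the embryos. The part of these shifts in the Ube2 results was not tested.

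Values are normalised reads: each library's counts were divided by a size factor of its own. To be tested, a gene had to reach 1 normalised read in 2 or more of the ESC libraries, or in 5 or more of the embryo libraries. A gene is called higher or lower at an adjusted p under 0.05 in limma, fitted over all genes. Fold changes are on the scale of log2(value + 1), which understates the change of genes with few reads.

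With Zscan4 overexpression, the Ube2 genes changed in both directions. Of 35 genes tested in the ESCs, 4 were higher (Ube2m, Ube2dnl1, Ube2cbp and Ube2e3) and 4 were lower (Ube2b, Ube2t, Ube2o and Ube2g1). Each count is 11.4% of the Ube2 genes tested, and over all 20888 genes tested the shares called were 11.7% higher and 11.4% lower, so the Ube2 genes were called about as often as genes in general. Their median log2 fold change was 0.33, against -0.02 over all genes, with 24 positive and 11 negative values. The OE and control libraries did not overlap for 18 Ube2 genes that were higher and 8 that were lower with overexpression, while 34.2% and 34.6% of all genes tested were so separated in each direction. The OE libraries were more unlike each other than the controls were: over all genes, the median SD of log2 values was 0.41 among OE ESCs and 0.09 among control ESCs. No Ube2 gene was called with either control left out, and 0 of all genes were, while 3617 and 3646 genes had an unadjusted p under 0.05 in limma. Leaving out an OE library leaves 1 OE library, assumed to vary like the controls, and calls then rose over all genes. Without OE library 1 there were 19 Ube2 genes higher and 7 lower, where 24.4% of all genes were higher and 27.6% lower. Without OE library 2 there were 13 higher and 7 lower, against 20.9% and 22.2% of all genes. Ube2dnl1 met the filter on low values through the OE libraries alone, so its call says no more than that choice does.

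**Figure D1:**
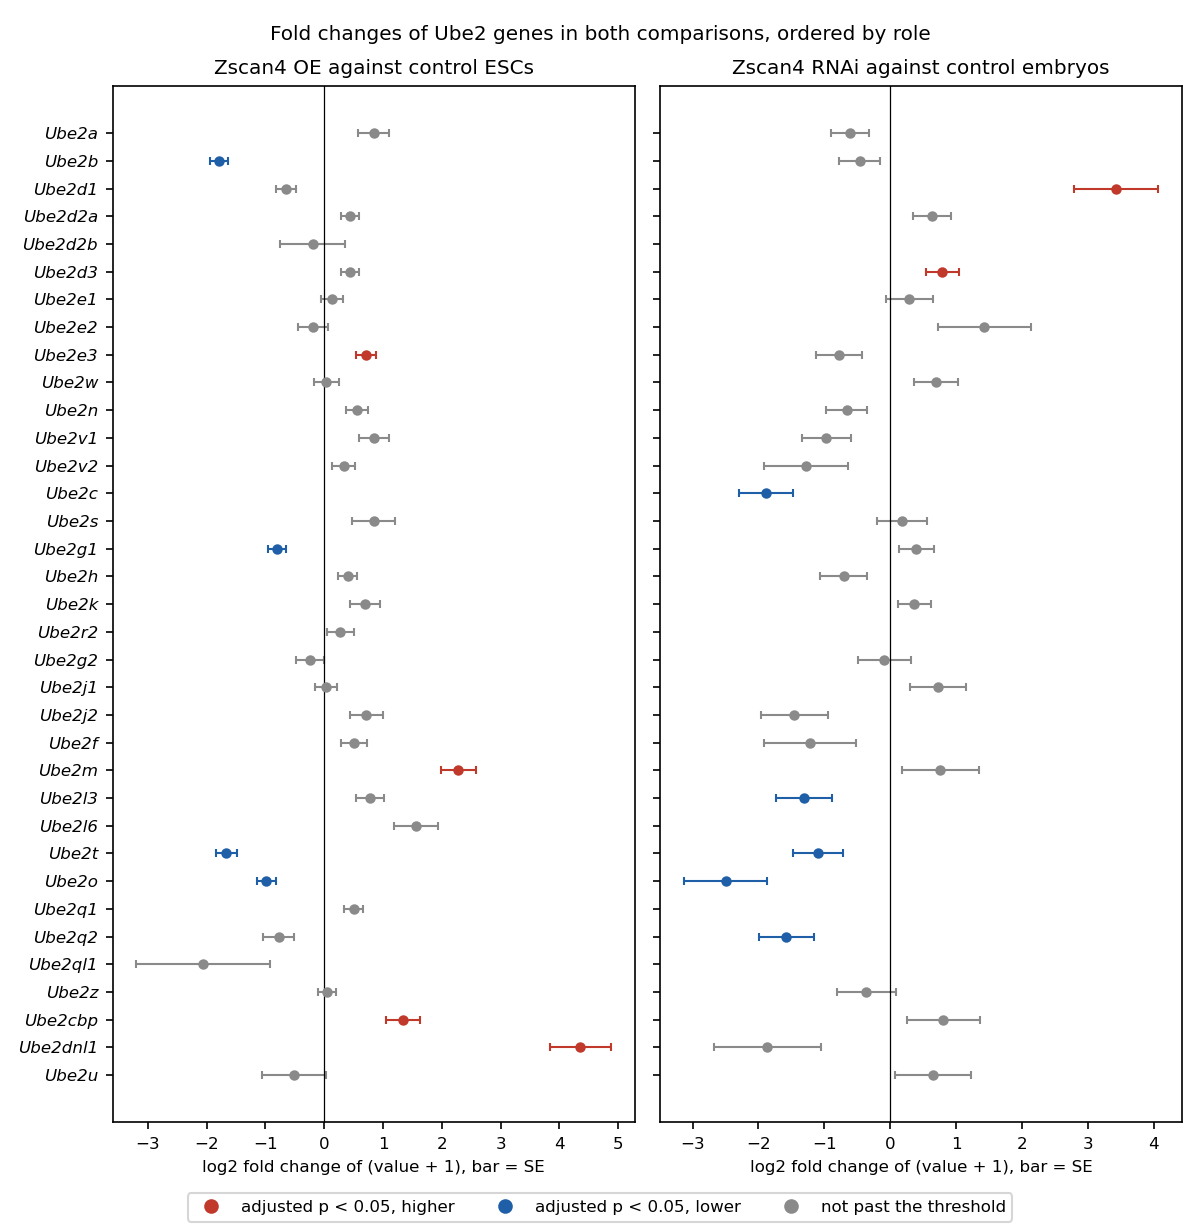
Log2 fold change of tested Ube2 genes (points; bars are the SE of the limma fit), for Zscan4 OE against control ESCs on the left and Zscan4 RNAi against control embryos on the right, with genes ordered by role from top to bottom. Red and blue points passed an adjusted p of 0.05, and Ube2t and Ube2o lie on the negative side in both panels.

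Among enzymes that attach a single ubiquitin to histone H2B and to the replication clamp PCNA, Ube2b fell and its near-twin Ube2a was not called. These are the counterparts of a single yeast enzyme, Rad6. Ube2b, on the minus strand of chromosome 11 at positions 51985497 to 52000762 (mm10, GENCODE vM21), had 1271 and 1335 normalised reads in the OE ESCs, against 4543 and 4440.1 in the control ESCs. Both OE libraries lay far below both controls, and replicates within a group were close. The log2 fold change was -1.78 (SE 0.15, adjusted p = 0.0119 in limma), or 3.45-fold lower. Ube2a, on chromosome X at positions 36873900 to 36884222, had 1466 and 2268 normalised reads in the OE ESCs, against 1027 and 1004 in the control ESCs. The OE libraries were both higher but unlike each other, and the log2 fold change of 0.84 did not pass (SE 0.26, adjusted p = 0.0828 in limma). The log2 ratio of Ube2a to Ube2b was therefore 0.48 ± 0.39 in the OE ESCs and -2.14 ± 0.0001 in the control ESCs (mean ± SD, n = 2 each), a difference of 2.63 from a ratio within each library, which scaling hardly alters at these levels. No test of such ratios was made in the ESCs, where 2 libraries against 2 cannot pass an exact test.

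The coding sequences of these twins are shown because the reads could be told apart between them. Each is 60 bases around the codon of the catalytic cysteine, coding bases 226 to 285, read from the GENCODE vM21 transcripts on mm10, with capitals at the 12 bases that differ between the twins; the Ube2a stretch spans chrX:36881731-36882642 (plus strand) and the Ube2b stretch chr11:51988657-51991409 (minus strand), each with an intron between.
Ube2a: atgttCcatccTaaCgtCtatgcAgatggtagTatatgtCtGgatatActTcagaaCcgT
Ube2b: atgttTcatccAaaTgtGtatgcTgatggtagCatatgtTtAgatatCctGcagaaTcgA
Over the whole coding sequence of 456 bases, 77.6% of bases were identical and the longest identical run was 17 bases. None of the 50-base stretches of either gene's transcripts occurred in another gene.

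Ube2t fell about as far as Ube2b. It encodes the E2 that works with the ligase Fancl in the repair of DNA crosslinks. Ube2t, on chromosome 1 at positions 134962565 to 134974162, had 1024 and 1255 normalised reads in the OE ESCs, against 3646 and 3555 in the control ESCs. Both OE libraries were well below both controls, and the log2 fold change was -1.67 (SE 0.18, adjusted p = 0.0147 in limma). Ube2o encodes a very large E2 that also acts as its own ligase, known for clearing surplus ribosomal proteins in maturing red blood cells. It lies on chromosome 11 at positions 116537740 to 116581447, and it had 1697 and 1521 normalised reads in the OE ESCs, against 3131 and 3227 in the control ESCs. The groups were again well apart, at a log2 fold change of -0.98 (SE 0.16, adjusted p = 0.0245 in limma).

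Of the genes for E2 enzymes that build proteasome-targeting chains, Ube2g1 fell. It extends chains with cullin ligases and lies on chromosome 11 at positions 72607283 to 72686481. Ube2g1 had 1552 and 1409 normalised reads in the OE ESCs, against 2619 and 2532 in the control ESCs, with no overlap (log2 fold change -0.80, SE 0.16, adjusted p = 0.0342 in limma). With the replicate number as a block, which the data do not show to pair the libraries, the adjusted p was 0.0693. Its relative Ube2g2, an E2 of protein degradation at the endoplasmic reticulum, had 816 and 1171 normalised reads in the OE ESCs and 1138 and 1169 in the control ESCs, and the groups overlapped (log2 fold change -0.24, adjusted p = 0.493).

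Ube2b, Ube2g1 and Ube2o all lie on chromosome 11, and so does Ube2z, an E2 that takes ubiquitin from the activating enzyme Uba6. Ube2z had 5348 and 5641 normalised reads in the OE ESCs and 5191 and 5402 in the control ESCs, which overlapped (log2 fold change 0.05). The whole chromosome was shifted: the median log2 fold change of the 1537 genes tested on it was -0.49, with 23% called lower and 6.12% called higher. The part of that shift in the values of Ube2b, Ube2g1 and Ube2o was not tested. The median was -0.05 over the 1321 genes tested on chromosome 1, where Ube2t lies. On chromosome X, which holds Ube2a and Ube2dnl1, the median was 0.29 over 773 genes.

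**Figure D2:**
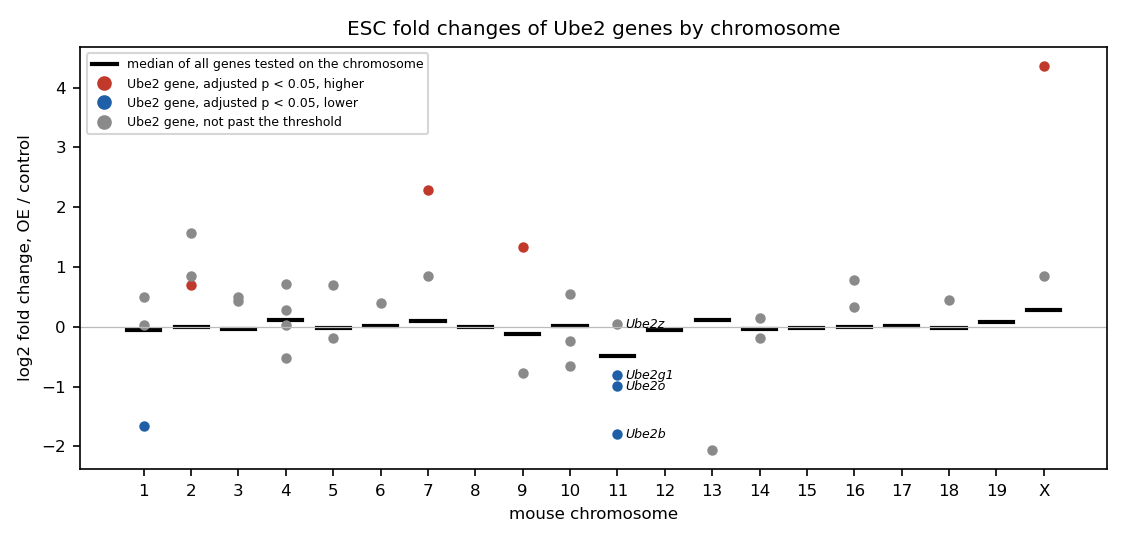
Log2 fold change of Ube2 genes, Zscan4 OE over control ESCs, by the chromosome they lie on (points), with the median of all genes tested on that chromosome (black bars). On chromosome 11 the median is -0.49, and Ube2g1, Ube2o and Ube2b lie below it, with Ube2z above.

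Among genes that rose, Ube2m had the largest change apart from genes with few reads. It encodes the E2 that attaches NEDD8 to most cullins, which switches cullin ligases on, while Ube2f does this for Cul5. Ube2m, on chromosome 7 at positions 13035120 to 13038275, had 1932 and 3144 normalised reads in the OE ESCs, against 562 and 455 in the control ESCs. Both OE libraries exceeded both controls several times over, at a log2 fold change of 2.28 (SE 0.30, adjusted p = 0.0186 in limma) and a fold of 4.99. Ube2f had 1281 and 1773 normalised reads in the OE ESCs and 1076 and 1048 in the control ESCs, higher in both OE libraries but not called (log2 fold change 0.50, adjusted p = 0.165). The log2 ratio of Ube2m to Ube2f was 0.71 ± 0.17 in the OE ESCs and -1.07 ± 0.19 in the control ESCs (mean ± SD, n = 2 each).

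Ube2e3 belongs to a small family of E2 enzymes that transfer ubiquitin with many ligases. It had 1015 and 1124 normalised reads in the OE ESCs, against 657 and 652 in the control ESCs. The groups were well apart, but the change was small and its adjusted p close to the threshold (log2 fold change 0.71, SE 0.17, adjusted p = 0.0488 in limma), and the call was lost in 8 of 13 alternatives. Its relative Ube2e1 had 882 and 743 normalised reads in the OE ESCs and 703 and 769 in the control ESCs, with overlap. Ube2cbp had 129 and 157 normalised reads in the OE ESCs, against 50.5 and 61.8 in the control ESCs (log2 fold change 1.34, SE 0.29, adjusted p = 0.0405 in limma). Its 2 OE libraries were both higher, and the call was lost in 4 of 13 alternatives.

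Ube2dnl1, a Ube2d-like gene on chromosome X at positions 114905012 to 114905941, was detected in the OE ESCs only. It had 26.4 and 14.3 normalised reads in the OE ESCs, 41 reads in all, against no read in either control. Against a floor of 3 reads over the control group, this was at least 15.0-fold higher. No control library reached the 1 normalised read that the filter asks for, so the gene was tested only because of its OE libraries, and its p is not given. Its neighbour Ube2dnl2, which shares 11.7% of the 50-base stretches of Ube2dnl1, had 0 and 3.58 normalised reads in the OE ESCs and none in the controls, and was not tested.

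**Figure D3:**
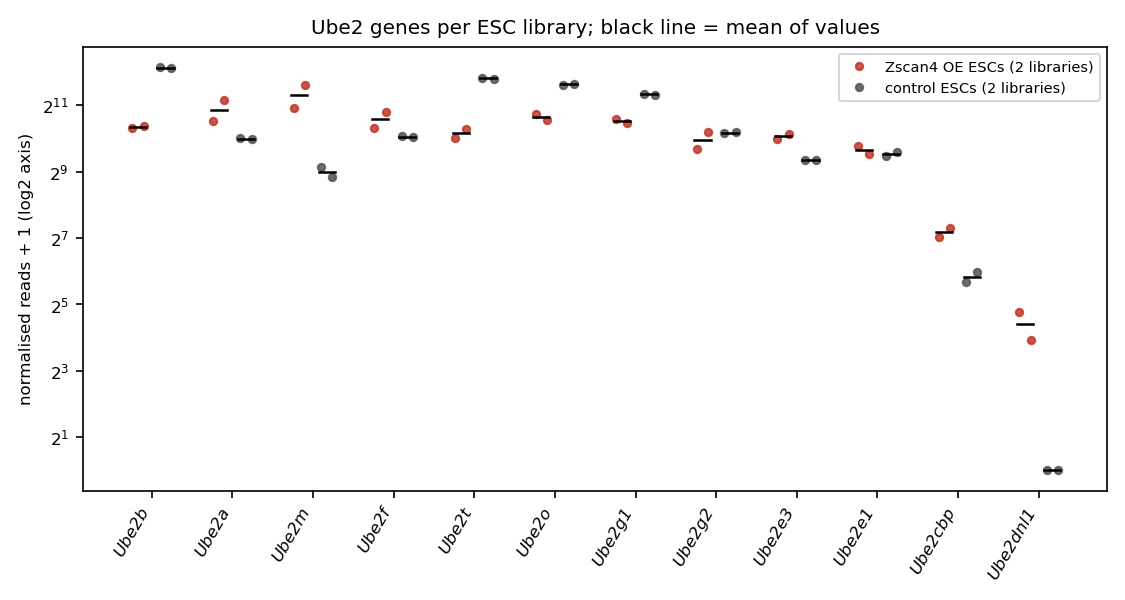
Normalised reads plus 1 on a log2 axis for the called Ube2 genes and their relatives in the ESCs; each point is a library, Zscan4 OE (red) left of control (grey), and black lines are means of the values. Ube2b lies at 1271 and 1335 in the OE libraries, against 4543 and 4440.1 in the controls, while Ube2a lies higher in the OE libraries.

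The other 27 tested Ube2 genes were not called in the ESCs. Their log2 fold changes ran from -2.06 for Ube2ql1, which had at most 14.0 normalised reads in any library, to 1.56 for Ube2l6. Ube2l6, an E2 of the interferon-induced modifier ISG15, had 37.4 and 51.3 normalised reads in the OE ESCs, against 14.3 and 14.0 in the control ESCs. Its groups were well apart, and its adjusted p of 0.05002 in limma was just above the threshold. The 3 genes for signalling chains, Ube2n, Ube2v1 and Ube2v2, were all higher in both OE libraries without a call. Ube2s, which extends chains for the anaphase-promoting complex, had 11929 and 23689.7 normalised reads in the OE ESCs, against 9330.0 and 9410.1 in the control ESCs. OE library 2 alone held the very high value, and the log2 fold change of 0.84 had an SE of 0.37 (adjusted p = 0.164). Ube2d4, Ube2nl and Ube2uos had no read in any ESC library and were not tested.

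All Ube2 genes together took 0.317% and 0.395% of reads in the OE ESCs, against 0.293% and 0.291% in the control ESCs. Ube2s alone made up 15.5% and 23.0% of these reads in the OE ESCs and 13.0% and 13.2% in the control ESCs. Per kilobase of the longest coding transcript, the 6 highest Ube2 genes of the control ESCs included Ube2s, Ube2t, Ube2b, Ube2v1 and Ube2d3, in falling order. The place of Ube2v1 is uncertain because of its shared exons. Ube2s stood at 14386 ± 6717 normalised reads per kilobase in the OE ESCs and 7569 ± 45.7 in the control ESCs (SD, n = 2 each), and Ube2t stood at 1021 ± 147 in the OE ESCs and 3226 ± 57.9 in the control ESCs. Ube2t and Ube2b thus left the leading places with overexpression, since Ube2b stood at 727 ± 25.4 per kilobase in the OE ESCs and 2506 ± 40.6 in the control ESCs. Of the 6 highest genes, 5 were also among the top 6 when length was taken over all exons of the gene. By that length Ube2b ranked 1, Ube2t 6 and Ube2d3 20 in the control ESCs.

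With Zscan4 RNAi in 2-cell embryos, 3 of 31 tested Ube2 genes were higher, Ube2d1 and Ube2d3 among them, and 5 were lower (Ube2c, Ube2o, Ube2q2, Ube2l3 and Ube2t). These are 9.68% and 16.1% of the Ube2 genes tested, where 6.13% of all 16417 genes tested were higher and 12.0% lower. Ube2d1 met the filter on low values through its RNAi libraries, where it was higher. The median log2 fold change was -0.36 for the Ube2 genes and -0.03 for all genes, with 14 positive and 17 negative values among the Ube2 genes. RNAi and control libraries did not overlap for 3 Ube2 genes higher and 2 lower with RNAi, against 3.05% and 4.28% of all genes. Without control library 5, which stood apart in its maternal and zygotic transcripts, 3 Ube2 genes were higher and 9 lower, and over all genes the shares were also larger, at 7.94% higher and 13.9% lower. Quantile normalisation changed the balance over all genes to 1396 higher and 1609 lower, where the fit reported here gave 1007 and 1976, and moved the median of all genes to 0.14.

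Ube2d enzymes work with a wide range of ligases and often add the first ubiquitin. Ube2d1, on chromosome 10 at positions 71254980 to 71285262, had 11.5 to 27.5 normalised reads in the RNAi embryos, with a median of 23.9, against 5.87, 0, 0, 0 and 4.89 in the control embryos. Every RNAi library was above every control, 2 of 5 controls reached the minimum of the filter, which the gene met through its RNAi libraries, and 3 controls had no read, with 146 reads in the RNAi group and 12 in the control group. The log2 fold change was 3.43 (SE 0.64, adjusted p = 0.00331 in limma), or 10.4-fold for the means. Without control library 5 it was 3.80 (adjusted p = 0.00112 in limma), and the call held in all 19 alternatives run. These alternatives use the same libraries, so they are no separate support. The gene entered the main test through the group where it was higher. In the ESCs the same gene had 434 and 458 normalised reads with OE, against 703 and 697 in the controls, lower in both OE libraries but not called (log2 fold change -0.65, adjusted p = 0.0603).

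Ube2d3 drew more reads than any other Ube2 gene in the embryos. It lies on chromosome 3 at positions 135438149 to 135468198 and had 2649 to 5247 normalised reads in the RNAi embryos, with a median of 3989, against 2509.9, 2422, 2016, 1856 and 2242 in the control embryos. The lowest RNAi library was just above the highest control. The log2 fold change was 0.79 (SE 0.25, adjusted p = 0.0328 in limma). Under quantile normalisation it was 0.16 (adjusted p = 0.664), close to the median of all genes there, and 10 of 19 alternatives ended the call. Ube2d3 made up 44.3% to 61.7% of all Ube2 reads in the RNAi embryos, with a median of 50.1%, and 31.6% to 44.3% in the control embryos, with a median of 36.9%; control library 5 was the highest of the controls. Its relative Ube2d2a had 294 to 838 normalised reads in the RNAi embryos, with a median of 407, and 277, 315, 335, 229 and 344 in the control embryos, with overlap and no call (log2 fold change 0.64, adjusted p = 0.137). In the ESCs, Ube2d3 had 8086 and 7556 normalised reads with OE, against 5662 and 5903 in the controls (log2 fold change 0.44, adjusted p = 0.11), and Ube2d2a had 3545 and 3908 with OE, against 2723 and 2745 in the controls (log2 fold change 0.45, adjusted p = 0.106). Both genes were higher in both OE libraries, and neither was called.

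Ube2d1 and Ube2d3 encode closely related proteins, and their coding sequences are shown to make plain that relatives with few and with many reads can be counted apart. The 60 bases around the catalytic cysteine codon are coding bases 217 to 276, from GENCODE vM21 on mm10, at chr10:71258229-71258288 (minus strand) for Ube2d1 and chr3:135459993-135460052 (plus strand) for Ube2d3, with capitals at the 13 bases that differ.
Ube2d1: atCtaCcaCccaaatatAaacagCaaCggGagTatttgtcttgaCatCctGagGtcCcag
Ube2d3: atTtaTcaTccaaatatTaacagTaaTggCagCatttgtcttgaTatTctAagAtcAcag
Over 441 coding bases 77.3% were identical, with a longest identical run of 14 bases. No 50-base stretch of the Ube2d1 transcripts occurred in another gene, and 3.48% of those of Ube2d3 did.

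Ube2c fell. It starts ubiquitin chains on substrates of the anaphase-promoting complex, such as cyclin B, and Ube2s extends them. Ube2c, on chromosome 2 at positions 164769898 to 164778822, had 75.6 to 437 normalised reads in the RNAi embryos, with a median of 152, against 665, 724, 793, 796 and 293 in the control embryos. The RNAi libraries were below the first 4 controls, and control library 5 lay within their range. This gave a log2 fold change of -1.88 (SE 0.41, adjusted p = 0.00574 in limma), and it was -2.15 without control library 5 (adjusted p = 0.00191). The call held in all 19 alternatives. Ube2c shares 592 exon bases with Tnnc2 on the other strand, and the strand setting of the counting is not known, so its level is uncertain. Ube2s had 30.2 to 143 normalised reads in the RNAi embryos, with a median of 99.6, and 62.9, 63.4, 66.8, 63.2 and 105 in the control embryos, with overlap and no call (log2 fold change 0.18, adjusted p = 0.78).

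Ube2o fell as it had in the ESCs. It had 4.12, 40.2, 1.30, 4.64, 31.6 and 6.94 normalised reads in the RNAi embryos, a median of 5.79, against 41.9, 70.1, 45.9, 90.1 and 32.3 in the control embryos. RNAi library 2 lay above the lowest control, library 5 just under it, and the other 4 far below. Its log2 fold change was -2.50 (SE 0.64, adjusted p = 0.0120 in limma); edgeR gave -1.78 (adjusted p = 0.0608). Chromosome 11 had a median log2 fold change of -0.31 over 1203 genes in the embryos as well, with 17.5% called lower, and its part in the value of Ube2o was not tested.

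Ube2q2 encodes an E2 with a long N-terminal extension whose substrates are little known. It lies on chromosome 9 at positions 55148854 to 55207529 and had 7.55 to 19.6 normalised reads in the RNAi embryos, with a median of 11.2, against 46.1, 48, 47.3, 23.4 and 32.3 in the control embryos. All RNAi libraries were below all controls (log2 fold change -1.58, SE 0.42, adjusted p = 0.0141 in limma), and the call held in all 19 alternatives. In the ESCs it had 856 and 552 normalised reads with OE, against 1206 and 1149 in the controls, lower in both without a call (log2 fold change -0.77, adjusted p = 0.104). Its relative Ube2q1 had 2576 and 2991 normalised reads in the OE ESCs and 1920.1 and 2004 in the control ESCs, and at most 2.32 in any embryo library.

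Ube2l3 supplies ubiquitin to ligases that carry it on a cysteine of their own, such as parkin. It lies on chromosome 16 at positions 17152013 to 17202649 and had 18.0 to 55.9 normalised reads in the RNAi embryos, with a median of 26.7, against 58.7, 168, 87.7, 94.8 and 29.3 in the control embryos. All but control library 5 were above all RNAi libraries (log2 fold change -1.31, SE 0.42, adjusted p = 0.0369 in limma), and without that library the value was -1.64 (adjusted p = 0.00765). Its exons share 1670 bases with Ydjc on the other strand, so its counts are uncertain, and 10 of 19 alternatives ended the call. In the ESCs the gene had 4164 and 6046 normalised reads with OE, against 3026 and 2834 in the controls, in the other direction and without a call (log2 fold change 0.78, adjusted p = 0.0801).

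Ube2t had 23.2 to 90.6 normalised reads in the RNAi embryos, with a median of 67.3, against 78.0, 195, 202, 139 and 82.1 in the control embryos. RNAi library 1 lay above the lowest controls and the other RNAi libraries below all of them. The log2 fold change was -1.10 (SE 0.38, adjusted p = 0.0479 in limma), just under the threshold, and 12 of 19 alternatives ended the call.

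**Figure D4:**
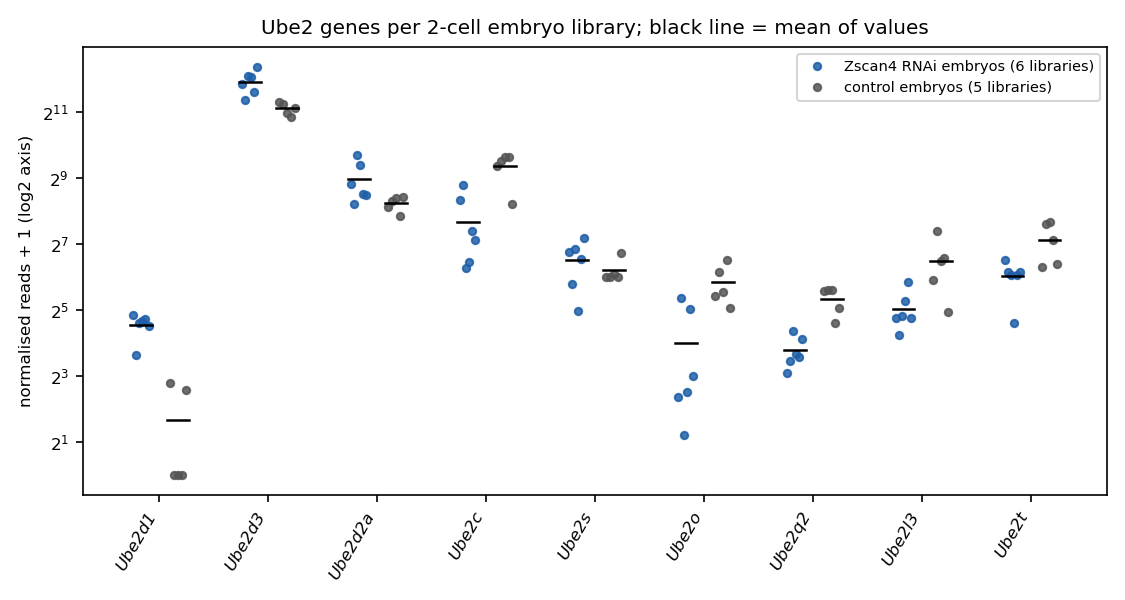
Normalised reads plus 1 on a log2 axis for called Ube2 genes and 2 relatives (Ube2d2a and Ube2s) in 2-cell embryos; each point is a library, Zscan4 RNAi (blue, 6) left of control (grey, 5), and black lines are means of the values. Ube2d1, Ube2d3 and Ube2q2 show no overlap, and for Ube2c the control point at 293 lies among the RNAi libraries.

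Ube2t and Ube2o were thus called lower both in ESCs with more Zscan4 and in embryos with less. Over all genes 11.4% were called lower in the ESCs and 12.0% in the embryos, and the share called lower in both was not counted. In the embryos the Ube2t call was lost in 12 of 19 alternatives and the Ube2o call with edgeR. Ube2o lies on chromosome 11, whose median log2 fold change was negative in both comparisons. No Ube2 gene was called in opposite directions. The promoters of Ube2t and of Ube2b, the member with the smallest adjusted p in the ESCs, are shown because these genes fell furthest among well-measured genes there; each is the 250 bases before the RefSeq start (GRCm38.p6), at chr1:134962315-134962564 (plus strand) and chr11:52000787-52001036 (minus strand). Capitals mark CCAAT on either strand in Ube2t and CACGTG in Ube2b.
Ube2t: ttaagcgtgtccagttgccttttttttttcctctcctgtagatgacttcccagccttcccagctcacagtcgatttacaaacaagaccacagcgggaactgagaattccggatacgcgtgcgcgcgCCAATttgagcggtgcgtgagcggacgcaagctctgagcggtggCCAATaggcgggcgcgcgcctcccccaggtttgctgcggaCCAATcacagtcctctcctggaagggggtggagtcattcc
Ube2b: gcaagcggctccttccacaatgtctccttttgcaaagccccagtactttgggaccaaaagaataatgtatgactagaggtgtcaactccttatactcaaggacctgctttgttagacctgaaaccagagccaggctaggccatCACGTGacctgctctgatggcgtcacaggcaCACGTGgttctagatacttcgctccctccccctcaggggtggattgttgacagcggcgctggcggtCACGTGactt
Ube2t held 3 copies of CCAAT and Ube2b 3 copies of CACGTG, an E-box whose letters read the same on both strands. The 31 Ube2 genes with an entry had 42 promoters. CCAAT was found in 33.8% of all 32851 promoters and in 10 of these 42. CACGTG was in 6.02% of all and in 2 of the 42 (Ube2b and Ube2q1). TTTGAA, searched with its reverse complement, was in 16% of all and in 5 of the 42. Among these was Ube2c, which also held 6 copies of CCAAT of which a pair overlapped. TGCACAC, a motif reported for Zscan4 binding and searched on both strands, was in 3.67% of all and in 1 of the 42, for Ube2l3. These matches describe letters only.

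The remaining called or related genes differed less in the embryos. Ube2b had 55.7 to 112 normalised reads in the RNAi embryos, with a median of 82.6, and 89.0 to 153 in the control embryos, with a median of 107. The groups overlapped (log2 fold change -0.46, adjusted p = 0.317). Ube2a likewise had 158 to 359.9 in the RNAi embryos, with a median of 198, and 254 to 513 in the control embryos, with a median of 298 (log2 fold change -0.61, adjusted p = 0.142). Ube2g1 had 210.0 to 373 normalised reads in the RNAi embryos, with a median of 243, and 148 to 236 in the control embryos, with a median of 223, while Ube2g2 had medians of 24.5 in the RNAi embryos and 21.5 in the control embryos; neither was called. Ube2cbp had medians of 18.1 in the RNAi embryos and 6.84 in the control embryos and overlapped (adjusted p = 0.323). Ube2m, so much higher in the OE ESCs, had few reads in the embryos, with at most 4.12 normalised reads in the RNAi and 4.17 in the control libraries. Ube2f had medians of 4.34 normalised reads in the RNAi embryos and 7.02 in the control embryos. Ube2e3 had 43.0 to 122 normalised reads in the RNAi embryos, with a median of 69.2, and 60.6 to 195 in the control embryos, with a median of 128. Its groups overlapped (log2 fold change -0.77, adjusted p = 0.126), and Ube2e1 had medians of 46.8 in the RNAi embryos and 42.1 in the control embryos. Ube2dnl1 had 0 to 6.31 normalised reads in the RNAi embryos and 1.68, 24.3, 6.96, 24.6 and 0 in the control embryos, with overlap and no call (log2 fold change -1.86, adjusted p = 0.115).

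Of the 31 genes tested, 23 were not called in the embryos. By role, the 3 genes for signalling chains (Ube2n, Ube2v1 and Ube2v2) all had negative values with a median of -0.97 and no call. The counts of Ube2v1 are uncertain here too, because of its shared exons. Of the 7 tested genes for E2 enzymes that start chains with many ligases, 6 had positive values, with a median of 0.70. The 2 called higher, where 6.13% of all genes were, are Ube2d1 and Ube2d3. Ube2d1 met the filter through its RNAi libraries, and 10 of 19 alternatives ended the Ube2d3 call. The 9 genes left untested were Ube2d2b, Ube2d4, Ube2dnl2, Ube2l6, Ube2nl, Ube2q1, Ube2ql1, Ube2r2 and Ube2uos. Ube2d4, Ube2dnl2 and Ube2nl had no read in any embryo library. Ube2d2b had 13 reads and Ube2q1 had 7 reads in the RNAi group, and neither had a read in the controls, where 1 read is worth 0.687 to 1.39 normalised reads over the embryo libraries, so nothing firm can be said of them at this depth.

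Per kilobase of the longest coding transcript, the 6 highest Ube2 genes of the control embryos included Ube2d3, Ube2c, Ube2a, Ube2t and Ube2d2a, in falling order. Ube2d3 stood at 1016 ± 241 normalised reads per kilobase in the RNAi embryos and 576 ± 71.3 in the control embryos (SD, n = 6 and 5), and Ube2c stood at 93.0 ± 65.6 in the RNAi embryos and 299 ± 95.4 in the control embryos. Ube2a stood at 129 ± 41.9 in the RNAi embryos and 197 ± 62.8 in the control embryos, so the intervals of mean ± SD of Ube2c and Ube2a overlapped within each group. Ube2t and Ube2d2a stood in the controls at 125 ± 53.0 and 121 ± 19.1. Only 4 of the 6 highest were also in the top 6 by the length of all exons. By that length Ube2c ranked 1 in the controls, at 252 per kilobase, and Ube2d3 ranked 4, at 90.2. Ube2t and Ube2d2a ranked 10 and 11, so the order depends on the length used. All Ube2 genes together took 0.623% to 0.836% of reads in the RNAi embryos and 0.576% to 0.670% in the control embryos.

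Ratios between related or cooperating genes were taken within each library on log2(value + 1), where the scaling cancels except for genes with few reads, and 8 pairs were compared between the embryo groups by an exact two-sided permutation test over all 462 assignments. After adjustment over the 8 pairs, 4 differed. The log2 ratio of Ube2c to Ube2s averaged 1.04 ± 1.28 in the RNAi embryos and 3.11 ± 0.92 in the control embryos (exact p = 0.0173, adjusted p = 0.0390). The log2 ratio of Ube2j1 to Ube2j2, both E2 enzymes of the endoplasmic reticulum membrane, averaged 0.20 ± 0.99 in the RNAi embryos and -1.98 ± 0.98 in the control embryos (exact p = 0.0130, adjusted p = 0.0390). That of Ube2e1 to Ube2e3 averaged -0.68 ± 0.70 in the RNAi embryos and -1.74 ± 0.22 in the control embryos (exact p = 0.0173, adjusted p = 0.0390).

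That of Ube2m to Ube2f averaged -0.35 ± 1.59 in the RNAi embryos and -2.33 ± 0.51 in the control embryos (exact p = 0.0195, adjusted p = 0.0390), and it rests on at most 19 reads per library for either gene. With a pseudocount of 8 its difference was 0.70 and no longer passed (adjusted p = 0.0996, exact permutation test), while the other 3 pairs still did. Groups overlapped in the Ube2e1 to Ube2e3, Ube2j1 to Ube2j2, Ube2m to Ube2f and Ube2c to Ube2s ratios, and none of the pairs passed once any single library was left out. Ube2e1 shares exon bases with Nkiras1 and Ube2s with Rpl28, on the other strand in both cases. Ube2v1 shares exon bases with Gm20431 on the same strand and with Gm11476 on the other. The other 4 pairs did not pass this test: the difference in log2 ratio was -0.15 for Ube2a to Ube2b, 0.16 for Ube2d3 to Ube2d2a, 0.49 for Ube2g1 to Ube2g2 and 0.31 for Ube2v1 to Ube2v2. The ratio of Ube2a to Ube2b, far apart between the ESC groups, averaged 1.42 ± 0.41 in the RNAi embryos and 1.58 ± 0.27 in the control embryos (exact p = 0.496).

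**Figure D5:**
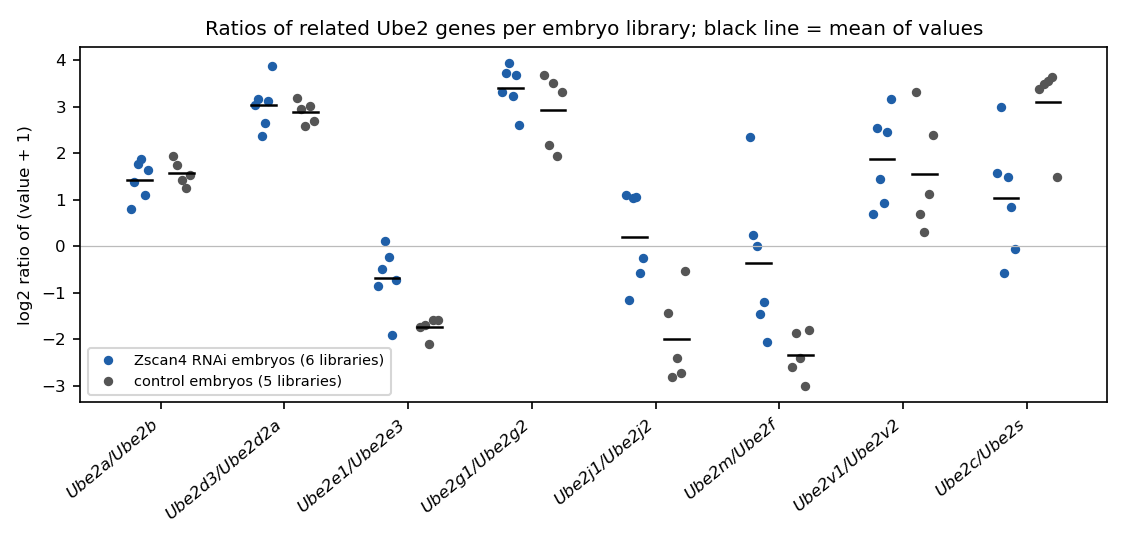
Log2 ratio of (value + 1) between related or cooperating Ube2 genes in each 2-cell embryo library; points are libraries, Zscan4 RNAi (blue) left of control (grey), and black lines are means of the values. The Ube2e1/Ube2e3, Ube2j1/Ube2j2 and Ube2m/Ube2f ratios average higher and the Ube2c/Ube2s ratio averages lower in the RNAi embryos, with overlap in each.

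Other genes of the pathway were read from 4 lists, whose counts stand against 11.7% of all genes higher and 11.4% lower in the ESCs and 6.13% and 12.0% in the embryos. Of 10 activating enzyme (E1) genes, 2 were higher and 0 lower in the OE ESCs, one of them Mocs3, which activates Urm1. Mocs3 averaged 354 ± 103 normalised reads in the OE ESCs and 45.3 ± 6.12 in the control ESCs (SD, n = 2 each; log2 fold change 2.91, adjusted p = 0.0153 in limma). In the embryos Mocs3 was the only one of 9 tested that was called, at 0.434 ± 1.06 normalised reads in the RNAi embryos and 4.31 ± 4.33 in the control embryos (SD, n = 6 and 5; adjusted p = 0.0395 in limma). That call rests on few reads: the RNAi libraries ranged from 0 to 2.60 and the controls from 0.978 to 11.7, with overlap. Mocs3 met the embryo filter mainly through the controls, where it was higher. Of 12 ubiquitin and ubiquitin-like genes, 2 were higher and 0 lower in the OE ESCs, one of them Ufm1. Ufm1 averaged 1154 ± 176 normalised reads in the OE ESCs and 542 ± 34.0 in the control ESCs (adjusted p = 0.0297 in limma).

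In the embryos 1 of 11 such modifier genes was higher, Sumo3, and 4 were lower. Sumo3 averaged 393 ± 164 normalised reads in the RNAi embryos and 144 ± 39.9 in the control embryos (SD, n = 6 and 5; log2 fold change 1.40, adjusted p = 0.00509 in limma). Among the lower genes was Rps27a, which encodes ubiquitin fused to a ribosomal protein. Rps27a averaged 23.8 ± 19.6 normalised reads in the RNAi embryos and 151 ± 58.7 in the control embryos (SD, n = 6 and 5; log2 fold change -2.88, adjusted p = 0.00257 in limma). Among 8 other E2 and E2-like genes, 1 was higher and 2 were lower in the OE ESCs. Uevld averaged 417 ± 192 normalised reads in the OE ESCs and 1633 ± 72.7 in the control ESCs (adjusted p = 0.0290), and Atg10, the E2-like enzyme that acts on Atg12, also fell. In the embryos 0 were higher and 1 was lower, Birc6, at 21.8 ± 9.16 normalised reads in the RNAi embryos and 65.1 ± 30.6 in the control embryos (adjusted p = 0.0379).

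Of 51 ligase and partner genes, 7 were higher and 3 lower in the OE ESCs (13.7% and 5.88%). Mdm2, the ligase of p53, averaged 2779.9 ± 782 normalised reads in the OE ESCs and 8968 ± 370.5 in the control ESCs (log2 fold change -1.72, adjusted p = 0.0210 in limma), and the cullin gene Cul1 rose. In the embryos 1 of 49 was higher and 6 were lower (2.04% and 12.2%), the lower share being close to that of all genes. The higher one, named after its value was seen, was Maea, a ligase subunit that works with Ube2h, at 191 ± 26.6 normalised reads in the RNAi embryos and 108 ± 43.9 in the control embryos (adjusted p = 0.0421 in limma). Ube2h itself had medians of 37.6 in the RNAi embryos and 59.8 in the control embryos and was not called. The cullin gene Cul3 averaged 51.0 ± 32.2 normalised reads in the RNAi embryos and 280 ± 102 in the control embryos (SD, n = 6 and 5; log2 fold change -2.59, adjusted p = 0.00233 in limma). Rnf7, the RING partner of Cul5 that works with Ube2f, averaged 27.8 ± 14.0 in the RNAi embryos and 151 ± 90.4 in the control embryos (adjusted p = 0.00718 in limma). Median log2 fold changes of the 4 lists lay between -0.04 and 0.27 in the ESCs and between -0.38 and 0.28 in the embryos, against -0.02 and -0.03 over all genes.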

How the data were processed

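The submitters' processing notes name Trimmomatic, HISAT2, featureCounts and the build mm10. No source used here gives their versions, the annotation, the strand and multimapping settings or the step that normalised the counts. The labels call the molecule genomic DNA and name a DNA library kit, whereas every title says RNA-Seq. The authors deposited separate ESC and embryo tables whose values are a normalised signal, gene counts over a size factor: every value was a whole multiple, within 0.01 of a read, of 1 step per library, and median-of-ratios factors recomputed from the recovered reads differed by at most 0.0932%. Levels are compared only within a table. Embryo control columns are numbered 1 to 5, unlike the labels, so the numbers only name libraries.

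The main test was limma 3.58.1 (R 4.3.3) with a trend on log2(value + 1), fitted on each table alone with no covariates and adjusted by Benjamini-Hochberg over all genes tested. It was checked on simulated data in which both groups of a table varied alike. That check does not cover the wider spread of the OE ESCs. Alternatives were a pseudocount of 8, no filter on low values, a mean of at least 10, TMM scaling, quantile normalisation, edgeR 4.0.16 and DESeq2 1.42.0 on the recovered reads, voom with quality weights, each library left out, and a replicate block. Ube2 genes called in either comparison, and their listed relatives, are named with their values, as are, of other pathway lists, the 2 genes with the smallest p per comparison; some of these genes are not reported here, though counts include them. The members and lists were chosen with earlier results of these data known. Positions are from GENCODE vM21, and promoters from RefSeq, with 31 members matched. Floors cover counting error only.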

Additional observations from a re-analysis of the deposited data

Results flagged for a closer look

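Values of Ube2 genes in the embryo groups, of 6 and 5 libraries, were examined for a library far from the others. Of 38 such sets of values 4 were flagged, and chance flags about 1 in 20. Control embryo library 5 was far below the other controls for Ube2c, at 293.3 normalised reads against 665 to 796.1. The same library was far above them for Ube2s, at 104.6 against 62.89 to 66.79. RNAi embryo library 2 was low for Ube2d1, at 11.48 against 21.7 to 27.46 in the other RNAi libraries. RNAi embryo library 4, which also had the lowest summed Zscan4 level, was low for Ube2t, at 23.22 against 64.92 to 90.63.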

How the results depend on the processing

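In the ESCs the counts of 4 higher and 4 lower Ube2 genes became 7 higher with DESeq2, where 13.9% of all genes were higher, and ranged from 0 to 19 higher and from 0 to 7 lower with 1 library left out, where 0% to 24.4% and 0% to 27.6% of all genes were; edgeR called 3 and 4. The replicate block gave 3 higher and 3 lower, where 14.1% of all genes were higher and 14.8% lower. With edgeR these shares were 11.1% and 10.5%. Same-numbered ESC libraries did not deviate together (correlation -0.01), so the numbers are not shown to pair them. For the embryos, no paired analysis was possible because the control column numbers do not match the labels. There the 3 higher became 1 with quantile normalisation, where 8.5% of all genes were higher, against 6.13% in the main fit. They ranged from 2 to 3 with 1 library left out, where 3.09% to 7.94% of all genes were higher. The 5 lower became 3 with no filter, 3 with quantile normalisation and 3 with edgeR. Of all genes 5.71%, 9.8% and 7.58% were lower in these settings, against 12.0% in the main fit. With 1 library left out the lower Ube2 genes ranged from 3 to 9, where 7.39% to 13.9% of all genes were lower. The 4 pair ratios that passed became 3 with a pseudocount of 8 and 0 with any library left out. Values near 0 changed sign. Ube2g2 in the ESCs ranged from -0.499 to 0.0212 with 1 library left out. Ube2g2 in the embryos was 0.00122 with TMM and 0.165 with quantile normalisation, and ranged from -0.204 to 0.0580 with 1 library left out. The difference in the Ube2v1 to Ube2v2 ratio was -0.0610 with a pseudocount of 8 and ranged from -0.00815 to 0.744 with 1 library left out, and that of Ube2d3 to Ube2d2a ranged from -0.0120 to 0.290. The cause was not tested. Over all genes voom called 2050 higher and 1231 lower in the ESCs, where limma called 2453 and 2390. Embryo depth limits genes with a few reads per library.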
